A study of Mus musculus with 121 samples.

Results

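The heat shock chaperones described here are 10 genes of the mouse cytosolic and mitochondrial protein folding machinery, Hsf1, Hspa1a, Hspa1b, Hspa8, Hsph1, Dnajb1, Hsp90aa1, Hsp90ab1, Hspd1 and Hspe1, chosen by symbol from the 31053 genes counted and found, each under 1 Ensembl identifier, in all libraries. RNA was measured in 62 libraries of an immortalized mouse-ear fibroblast line at passage 25. The line carries the PER2::LUCsv reporter of the clock protein PER2 and comes from Per2::lucSV knockin mice. In HL, medium rich in glucose with insulin (H) alternated every 12 h with medium poor in glucose (L) for 3 cycles of 24 h. LH had the same media in the opposite order, and HH received fresh H medium at each change. After a free run without changes, RNA was taken in 6 collections, 4 h apart, from 0 h to 20 h, in 2 to 4 libraries of each treatment and collection (21 of HL, 22 of LH and 19 of HH). Titles also carry a clock number, which is 20, 12, 4, 8, 12 and 16 over collections 1 to 6 of HL and HH and 20, 12, 16, 20, 12 and 16 over those of LH. These numbers do not advance by 4 h throughout and differ for LH in collections 3 and 4, so hours here follow the collection number in the title and the study's 4 h interval, and comparisons of collections, trends and rhythm rest on that order. All groups share the 1 line and its reporter, no group was grown without medium changes, and no group was heated or given a known stress. The sample labels number the replicates without saying what a number stands for, so p-values measure the spread between these libraries, which may be technical.

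HSF1 is the transcription factor that drives chaperone genes when unfolded protein accumulates. It binds heat shock elements, runs of inverted GAA units, upstream of its targets. HSP70 proteins bind exposed hydrophobic stretches of client proteins in an ATP cycle: HSPA8 is the constitutive member, HSPA1A and HSPA1B are the inducible pair, DNAJB1 of the HSP40 family stimulates the ATP hydrolysis and HSPH1 of the HSP110 family exchanges the nucleotide. HSP90 (inducible HSP90AA1 and constitutive HSP90AB1) holds late folding intermediates such as kinases and hormone receptors. HSPD1 and its lid HSPE1 form the HSP60 and HSP10 folding chamber of mitochondria. In fibroblasts the constitutive members are among the abundant housekeeping transcripts.

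The sequences ahead of the transcription starts are shown because 5 of the 6 members with a RefSeq promoter window hold the core of a heat shock element there. The letters searched on both strands were GAANNTTC or TTCNNGAA (2 facing units) and, overlapping with these, GAANNTTCNNGAA or TTCNNGAANNTTC (3 units). In windows from 250 bases before to 50 after the start, 15.1% of 32851 windows of all genes held the short form and 0.603% the long form. The long form was present in windows of Hspd1, Hspe1 and Hsph1, and neither form in the windows of Dnajb1. Of a list of 40 other chaperone genes described below, 34 had a window, and 13 of these held the short form and 1 the long form. A match describes letters and not a site that is used. Capitals mark the matches, each sequence reads 5′ to 3′ toward its gene, and coordinates are GRCm38.p6, the same genome version as mm10. Hspa1a and Hspa1b, both on the minus strand, differ in 1 of these 150 bases. The interval between 1 start of Hspd1 (to the left, minus strand) and that of Hspe1 (to the right, plus strand) is printed on the plus strand. These starts lie 216 bases apart, and the interval holds 3 overlapping matches. Another Hspd1 start, at base 55088243, lies past that of Hspe1, and its window held neither form.
Hspa1a, chr17:34972157-34972306, minus strand: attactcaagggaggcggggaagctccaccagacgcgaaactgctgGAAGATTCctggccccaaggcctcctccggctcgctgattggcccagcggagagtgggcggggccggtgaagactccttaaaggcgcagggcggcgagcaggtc
Hspa1b, chr17:34959239-34959388, minus strand: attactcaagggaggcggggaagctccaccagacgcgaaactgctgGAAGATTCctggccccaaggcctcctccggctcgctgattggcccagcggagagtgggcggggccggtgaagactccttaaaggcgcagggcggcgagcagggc
Hsph1, chr5:149636337-149636486, minus strand: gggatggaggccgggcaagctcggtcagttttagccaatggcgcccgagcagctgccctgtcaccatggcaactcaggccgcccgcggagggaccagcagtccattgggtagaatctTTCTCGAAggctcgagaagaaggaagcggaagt
Hsph1 past the start, chr5:149636287-149636304, minus strand: cagaTTCTGGAAAGTTCt
Hspd1-Hspe1 interval, chr1:55087933-55088147, plus strand: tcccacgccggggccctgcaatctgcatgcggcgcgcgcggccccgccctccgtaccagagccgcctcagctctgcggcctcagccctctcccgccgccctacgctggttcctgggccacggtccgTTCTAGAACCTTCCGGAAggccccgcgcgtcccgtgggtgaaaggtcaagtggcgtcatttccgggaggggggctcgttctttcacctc
Windows of Hsf1, Hspa8, Hsp90aa1 and Hsp90ab1 were not used here.

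The gene models (GENCODE M21) place Hsf1 on chromosome 15 (76477422 to 76501913, plus strand), Hspa8 on chromosome 9 (40800984 to 40810087, plus), Dnajb1 on chromosome 8 (83608193 to 83612653, plus), Hsp90aa1 on chromosome 12 (110690605 to 110702728, minus) and Hsp90ab1 on chromosome 17 (45567775 to 45573271, minus). The reads come from the 3′ end of transcripts, so levels are given as counts scaled to a library total of 1000000 (CPM) without division by length. Whether a read can be assigned to a member depends on its last bases. In the last 500 bases of the transcripts, no stretch of 100 bases of Hspa1a, Hspa1b, Hsph1, Hsf1, Hsp90ab1 or Dnajb1 occurred in another gene, so the inducible pair can be told apart by reads there. For Hspa8 47.62%, for Hsp90aa1 30.36%, for Hspe1 17.21% and for Hspd1 16.92% of such stretches occurred in another gene, mostly pseudogenes, and their counts are uncertain to that extent. Hspd1 and Hspe1 also overlap each other at their starts, away from the 3′ ends.

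Library totals were 104912 to 11619095 counts, with all but the lowest (LH, collection 2, replicate 2) at 2136819 or more. In that shallow library Hsf1 rests on 4 counts, Hspa1b on 5 and Hsph1 on 31. Col1a1, Col1a2 and Vim, fibroblast markers, were at 1086 CPM or more in every library and keratinocyte Krt5 was at 0 in all 62. The chondrocyte factor Sox9 (294 to 1129 CPM) and the endothelial receptor Kdr (20.3 to 269.7 CPM) were present while the means of their companions Col2a1, Acan, Pecam1 and Cdh5 were below 1 CPM. The immune markers together were at 334 CPM in the shallow library and at most 25.7 CPM elsewhere. For 35 libraries, the number that a library carries stands beside another name in the study's read summary than in its sample title. The numbers of 5 others are not listed there. By title or by number, 5 libraries are marked there as removed, and they were kept here. Placed by number, collection 5 of LH is 1 library, and its number is marked as removed. Titles define the groups here, and values with libraries placed by number rest on the 57 whose numbers are listed, of which all 19 HH libraries and collection 1 of HL have the same place in both. Which placement is right was not tested. Across treatments, deviations from group means correlated above 0.1 in 15 of 52 same-numbered pairs by titles and in 33 of 45 by number. Among pairs with different numbers these were 44 of 153 and 30 of 135.

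**Figure D1:**
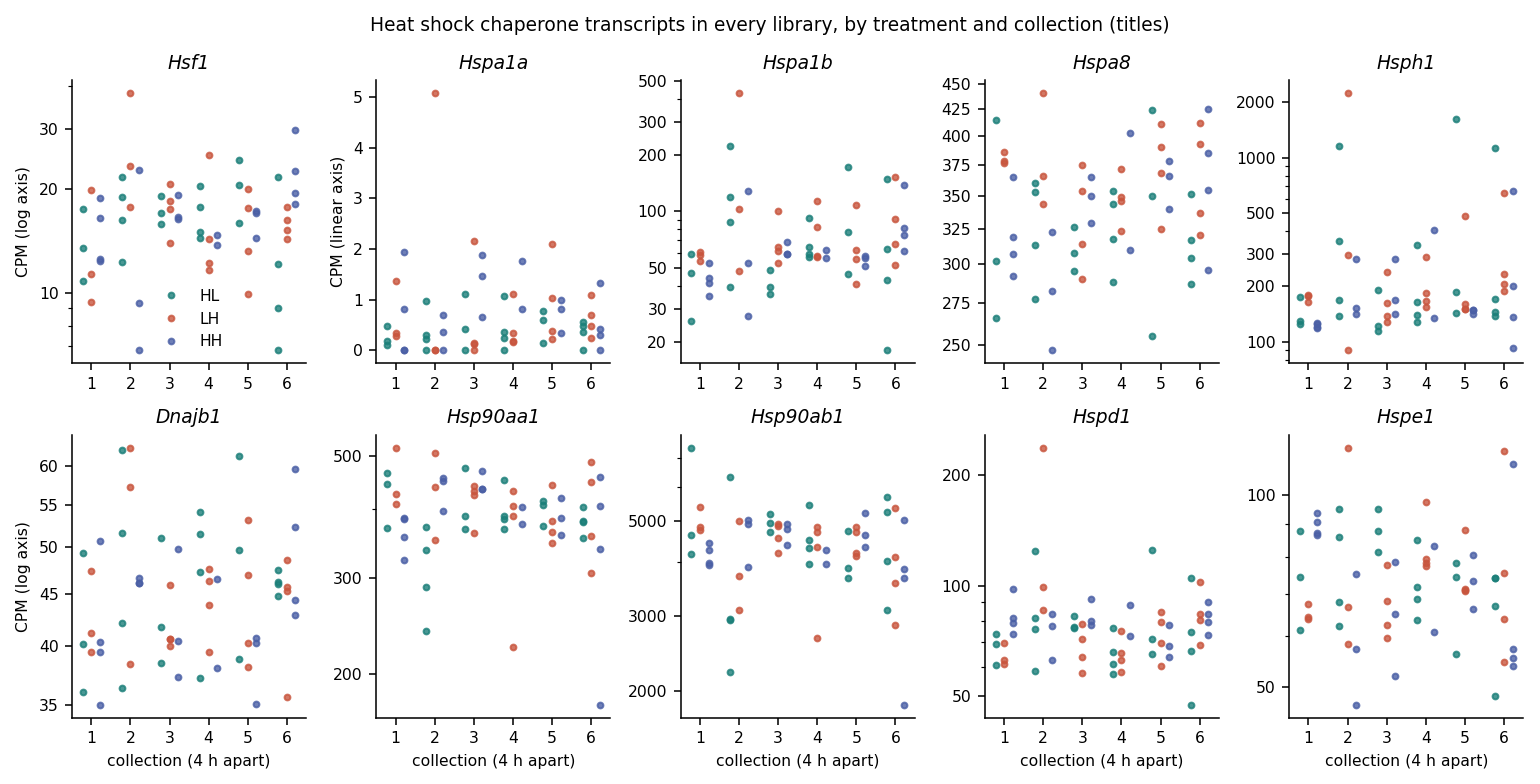
Level of each gene in CPM (log axis, linear for Hspa1a) in every library against collection, with HL, LH and HH in separate colours; each point is 1 library. Most members lie in a narrow band, while Hsph1 and Hspa1b each have a few libraries far above the rest, up to 2241 and 430 CPM.

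The members spanned more than 3 orders of magnitude. Hsp90ab1, the constitutive cytosolic HSP90, was the most abundant at 4376 ± 922 CPM (SD, n = 62). It was followed by Hsp90aa1 at 393 ± 62.5 CPM, Hspa8 at 342 ± 44.0 CPM and Hsph1 at 282.7 ± 368 CPM. Hspd1 (78.7 ± 25.3 CPM), Hspa1b (76.6 ± 59.0 CPM) and Hspe1 (74.0 ± 15.5 CPM) formed the next set, and their means differ by less than the spread of any of them. Dnajb1 stood at 45.0 ± 6.79 CPM and Hsf1 at 16.7 ± 5.28 CPM. Hspa1a was lowest, at 0.66 ± 0.81 CPM, with 230 counts in all and none in 11 libraries. Of the inducible pair, nearly all counts thus fell on Hspa1b, with 26697 counts.

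How much a member varied between libraries did not follow its level. Over the 61 libraries of at least 1000000 counts, the coefficient of variation was 131.5% for Hsph1 and 77.0% for Hspa1b, above those of 99.77% and 99.05% of the 7782 genes with a mean of at least 10 CPM. Hspd1 (32.4%) and Hsf1 (27.7%) lay above the median gene (22.2%). Without 1 library, collection 2 of LH, replicate 1, the value of Hspd1 was 19.5%, below the median gene (21.5%), that of Hspa1b 53.2% and that of Hsph1 109.1%. Hsp90ab1 (21.2%) and Hspe1 (21.1%) lay near it. Hsp90aa1 (16.0%), Dnajb1 (14.9%) and Hspa8 (13.0%) were steadier, and only 5.59% of genes varied less than Hspa8. The mean of Hsph1 rests on a few libraries, since its median was 164 CPM. The high values came back in both sequencing runs of a library, at 2267 and 2219 CPM of Hsph1 in the highest one, and over 55 libraries the log2 levels of Hsph1 in the first and second run correlated with r = 0.99.

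The treatments were compared first, to ask whether the order of rich and poor medium, or its absence, left chaperone transcripts at another level. No member differed between treatments in edgeR's quasi-likelihood test (Benjamini-Hochberg adjusted over 13292 genes, threshold 0.05), and neither did any other gene. For LH against HL, HH against HL and HH against LH the count was 0 of 10 members each, with 0.0% of all genes called in each. At an unadjusted p under 0.05, edgeR had 2, 0 and 1 members and DESeq2 also 2, 0 and 1, and DESeq2 called 0 after adjustment. The median log2 fold change of the members was 0.01, -0.07 and -0.08, and that of all genes tested 0.00, 0.00 and 0.00. With libraries placed by number the count was again 0 of 10 in each comparison (0.0152%, 0.00758% and 0.0227% of all genes were called).

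Hsf1 was at 6.78 to 24.4 CPM in HL (median 16.3), 9.37 to 38.1 in LH (16.9) and 6.79 to 29.8 in HH (16.6). The 3 ranges overlapped, and HH against HL gave a log2 fold change of -0.01 (SE 0.14), and 0.05 (SE 0.14) by number.

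Among the HSP70 genes, Hspa8 was at 255.2 to 425 CPM in HL (median 316), 290 to 441 in LH (367) and 246.96 to 425 in HH (340). Its medians were ordered LH, HH, HL within overlapping ranges, with a log2 fold change of 0.13 (SE 0.06, edgeR adjusted p = 0.866) for LH against HL. By number the order turned to HL, HH, LH (medians 349, 340 and 326 CPM), with a log2 fold change of -0.02 (SE 0.06) for LH against HL. Hspa1b was at 18.0 to 225.2 CPM in HL (median 58.8), 40.8 to 430 in LH (61.6) and 27.5 to 139 in HH (57.8). The medians of Hspa1b were close together and the ranges differed in their upper ends, with a log2 fold change of -0.48 (SE 0.22, edgeR adjusted p = 0.883) for HH against LH and -0.41 (SE 0.24) by number. Hspa1a reached at most 1.12 CPM in HL, 5.08 in LH and 1.93 in HH, values near the limit of these libraries, and its fold of LH against HL (1.02, SE 0.50, on the log2 scale, edgeR adjusted p = 0.866) was 0.33 (SE 0.54) by number and has too few counts to be read as a level.

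Of the partners of HSP70, Hsph1 was at 114 to 1622 CPM in HL (median 165), 89.9 to 2241 in LH (179) and 92.1 to 660 in HH (142). Its log2 fold change was -0.60 (SE 0.34, edgeR adjusted p = 0.724) for HH against HL, a difference with an interval from -1.27 to 0.07. By number the 3 highest libraries were in LH, and the log2 fold change was -0.17 (SE 0.33) for HH against HL, 0.84 (SE 0.35, edgeR adjusted p = 0.62) for LH against HL and -1.01 (SE 0.34, edgeR adjusted p = 0.323) for HH against LH. Dnajb1 was at 36.0 to 62.2 CPM in HL (median 46.2), 35.6 to 62.5 in LH (44.6) and 35.0 to 59.6 in HH (42.8). The 3 ranges overlapped, and its difference of HH from HL was -0.14 (SE 0.08), and 0.01 (SE 0.08) by number.

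Both HSP90 genes had their lowest library in collection 6 of HH, replicate 3. Hsp90ab1 was at 2218 to 7420 CPM in HL (median 4509), 2657 to 5389 in LH (4636) and 1854 to 5226 in HH (4352). Hsp90aa1 was at 240 to 477 CPM in HL (median 381), 224.4 to 518 in LH (418) and 176 to 470 in HH (398). The ranges of each gene overlapped between treatments, with log2 differences of HH from HL of -0.13 (SE 0.10) for Hsp90ab1 and -0.04 (SE 0.08) for Hsp90aa1. By number these were -0.08 (SE 0.09) and -0.03 (SE 0.08), and the medians of Hsp90aa1 were 405 CPM for HL and 389 CPM for LH, the reverse of their order by titles.

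Of the mitochondrial pair, Hspd1 was at 47.2 to 125 CPM in HL (median 73.8), 57.8 to 238.2 in LH (70.4) and 62.7 to 98.1 in HH (79.2). Hspe1 was at 48.4 to 95.3 CPM in HL (median 74.1), 54.7 to 119 in LH (70.8) and 46.8 to 112 in HH (73.4). Neither pair member separated the treatments, and the log2 differences of HH from HL were 0.01 (SE 0.12) for Hspd1 and -0.10 (SE 0.10) for Hspe1, and 0.12 (SE 0.13) and -0.07 (SE 0.09) by number.

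**Figure D2:**
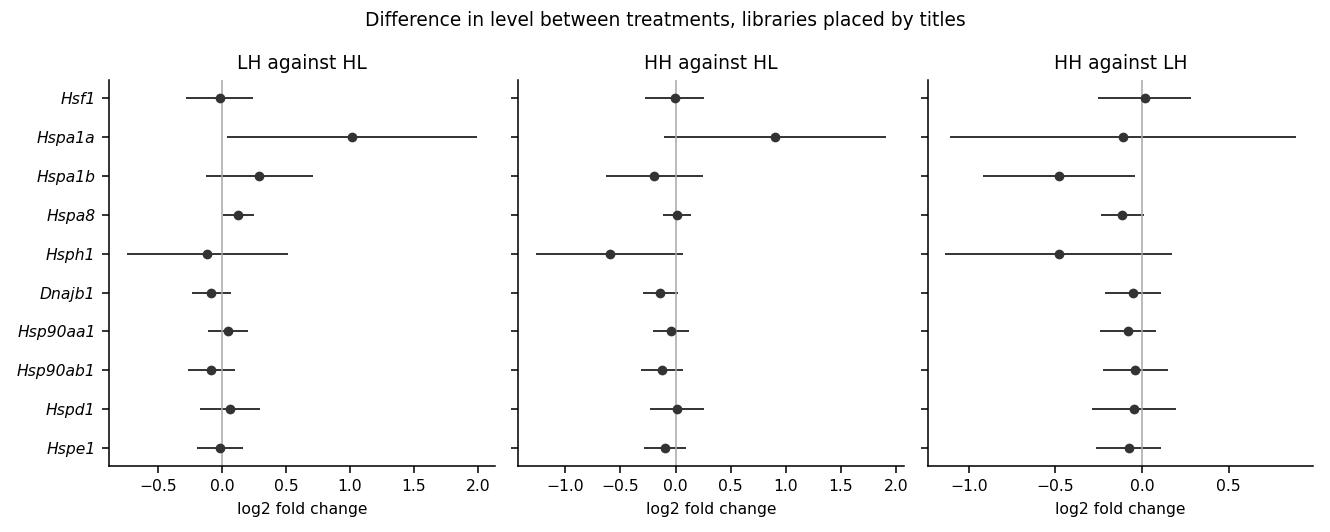
Log2 fold change (x axis) of each member (y axis) for LH against HL, HH against HL and HH against LH from edgeR with libraries placed by title; points are estimates and bars their 95% intervals. Bars are narrow for Hspa8, Dnajb1 and the HSP90 genes and wide for Hspa1a, and no member passed the adjusted threshold in a comparison.

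Other chaperone genes were examined in 4 lists: 13 cochaperones of HSP70 and HSP90, 7 subunits of the cytosolic chaperonin CCT, 8 other mitochondrial chaperones and proteases, and 11 small heat shock proteins and other genes known to respond to HSF1. A subunit also listed, Cct6a, was not matched to a counted gene and was not analysed here. None of the 39 was called between treatments, with medians of -0.02, -0.05 and -0.03 on the log2 scale for LH against HL, HH against HL and HH against LH. At an unadjusted p under 0.05, edgeR had 1, 4 and 2 of them in these comparisons.

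The 6 collections of a treatment were then compared with each other, to ask whether members changed over the 24 h. In HL 0 of 10 members were called (0.301% of all genes were), with 2 at an unadjusted p under 0.05 in edgeR, Hsph1 and Hspa1b. In HH 0 of 10 were called (0.293% of all genes), with 0 at an unadjusted p under 0.05. In LH 3 of 10 were called (2.93% of all genes): Hspd1 (edgeR adjusted p = 0.00158), Hspa1b (0.0253) and Hsph1 (0.0434). In all 3 genes the library of collection 2, replicate 1, was the highest of LH. There Hsph1 was at 2241 CPM against 295 and 89.9 in the other libraries of the group, Hspa1b at 430 against 47.7 and 103, and Hspd1 at 238.2 against 85.8 and 99.2. Without that 1 library 0 members were called, with edgeR adjusted p of 0.691 for Hspd1, 0.941 for Hspa1b and 0.87 for Hsph1. There were also 0 without replicate 1 of LH in all collections and 0 when libraries were placed by number. With a term for replicate number added to the placement by number, 1 member was called. Without replicate 3 of LH, by titles, 1 was called, Hspd1. Of the other chaperone genes, 4 of 39 were called in LH, Hspa4, Hspa4l, Cryab and the cyclophilin Ppid. What these 4 calls become without collection 2, replicate 1, of LH is not given here. That library had 4333104 counts, a share of reads on no feature of 21.1% (18.7% to 28.9% over all libraries), the highest sum of chondrocyte markers (1129 CPM, nearly all Sox9), the lowest endothelial sum (22.8 CPM) and a fibroblast marker sum of 13635 CPM (9594 to 37804 over all libraries), and the part of these in the result was not tested.

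JTK_CYCLE, a rank test for a 24 h wave, called 0 of 10 members in HL, LH and HH at P under 0.01, where 0.82%, 1.51% and 1.99% of all genes were called, so that the members' count is near the background. Beside this 0, edgeR's test of a 24 h cosine and sine had 0, 3 and 1 members at an unadjusted p under 0.05 and none after adjustment. Of the 39 other chaperone genes JTK_CYCLE called 1, 0 and 1 in HL, LH and HH. They were Cdc37, a cochaperone that brings kinases to HSP90, in HL (P = 0.0074 by the exact null distribution, and 1.0 with libraries placed by number) and St13, a cochaperone of HSP70, in HH (P = 0.00296 by the exact null distribution). Among the members the lowest JTK P belonged to Hspa8 in HH (0.0792 by the exact null distribution, phase 16 h) and Hsp90aa1 in HH (0.127 by the exact null distribution, phase 8 h). The rhythm of a member did not differ between treatments in edgeR either: 0 of 10 were called for HL against LH (0.0677% of all genes), HL against HH (0.015%) and LH against HH (0.0527%), with 0, 0 and 0 at an unadjusted p under 0.05. Treatment differences that vary between collections were called for 0 of 10 members (0.128% of all genes), with 1 at an unadjusted p under 0.05.

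The libraries with high Hsph1 in HH, where titles and numbers place every library alike, all carried replicate number 4. This comparison was chosen after these values had been seen, so its p-values describe the pattern and are no independent test of it. Hsph1 was at 125 CPM in replicate 4 of collection 1, at 282.3 in collection 2, 280 in collection 3, 406 in collection 4 and 660 in collection 6, and collection 5 had no replicate 4. Replicates 1 to 3 of the same treatment were at 92.1 to 202 CPM (median 141, 14 libraries). The 2 sets overlapped only through collection 1, where replicate 4 lay among the others (118, 120 and 127 CPM).

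Across HH, 2 of 10 members were called between replicate 4 and replicates 1 to 3 (1.48% of 12297 genes tested in HH were called). Hsph1, the HSP110 exchange factor, was 2.27-fold higher (log2 1.19, SE 0.20, edgeR adjusted p = 0.00198), and highest in replicate 4 in 4 of 5 collections. Hspa1b was 1.60-fold higher (log2 0.67, SE 0.16, edgeR adjusted p = 0.0263). Its replicate 4 was at 52.6, 129, 68.9, 62.1 and 139 CPM in collections 1, 2, 3, 4 and 6, each the highest of its collection, and replicates 1 to 3 were at 27.5 to 81.1 CPM. The sets of Hspa1b overlapped, since 3 of the 5 libraries lay within the range of the others. The library of collection 2, replicate 4, has 1 run and is marked as removed by both title and number. It gave the 129 CPM of Hspa1b and the 282.3 CPM of Hsph1. Hsph1 was called in each HH fit that left out 1 collection and Hspa1b was lost in 4 of these 6, and without replicate 1 of HH neither was called.

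The other 8 members did not pass the test in HH. Hspd1 gave 0.08 (SE 0.11), Hsf1 0.03 (SE 0.22), Dnajb1 -0.02 (SE 0.13), Hsp90aa1 -0.06 (SE 0.14), Hsp90ab1 -0.06 (SE 0.14), Hspe1 -0.07 (SE 0.17), Hspa8 -0.19 (SE 0.12) and Hspa1a -0.48 (SE 0.92) on the log2 scale. The median over the 10 members was -0.04 and that over all genes tested 0.00. Of the 39 other chaperone genes 2 were called, both higher in replicate 4 and both highest there in 5 of 5 collections: Hspa4l, another HSP110 protein (log2 1.59, SE 0.23, edgeR adjusted p = 0.000408), and Cryab, a small heat shock protein (log2 0.82, SE 0.12, edgeR adjusted p = 0.000609).

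Within replicate 4 of HH the level of Hsph1 rose with collection, by 0.44 log2 units for each step of 4 h (SE 0.06, edgeR adjusted p = 0.000242). It was the 1 member of 10 called (0.951% of genes). In replicates 1 to 3 the step was 0.04 (SE 0.03) for Hsph1, and there Hspa1b was the 1 member of 10 called (1.15% of genes), with a step of 0.17 (SE 0.04, edgeR adjusted p = 0.048). The steps differed between the sets for 1 of 10 members (0.0813% of genes, or 10 genes in all), Hsph1, by 0.40 (SE 0.07, edgeR adjusted p = 0.0107). The trend of Hsph1 in replicate 4 was lost without collection 1, and the difference was lost without collection 1, without collection 3 or without replicate 2. The trend of Hspa1b in replicates 1 to 3 was lost when any 1 of these 3 replicates was left out.

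**Figure D3:**
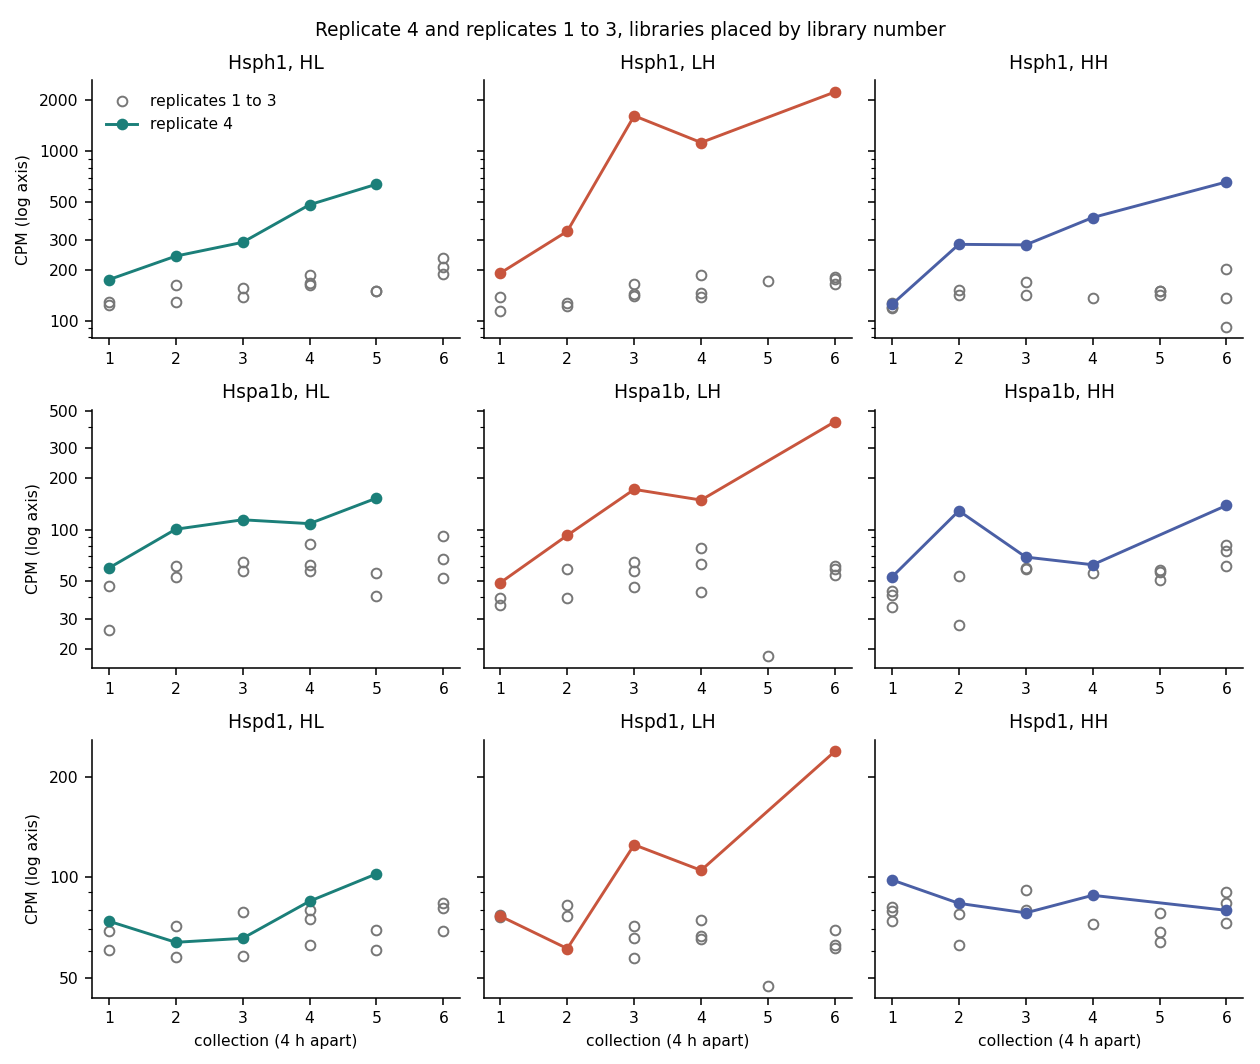
CPM (log axis) of Hsph1, Hspa1b and Hspd1 against collection in HL, LH and HH with libraries placed by library number; filled points joined by a line are replicate 4, open points replicates 1 to 3. Filled Hsph1 points lie above the open points of their collection in all but collection 1 of HH, and the HH panels are the same when libraries are placed by title.

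When all treatments were placed by library number, replicate 4 stood apart far more widely, in 29.9% of 13198 genes. By titles over all libraries no gene differed between replicate 4 and the rest (0 of 10 members, 0.0% of genes). By number 5 of 10 members were called. The fits by number took libraries as independent, while same-numbered libraries deviated together in 33 of 45 pairs. If a number marks 1 shared culture, the p-values here and for the trends below overstate the evidence. Hsph1 was 3.62-fold higher (log2 1.85, SE 0.18, edgeR adjusted p = 9.31e-12) and Hspa1b 2.28-fold higher (log2 1.19, SE 0.13, edgeR adjusted p = 5e-10). Hspd1 (log2 0.45, SE 0.11, edgeR adjusted p = 0.000864) and Hsf1 (log2 0.41, SE 0.12, edgeR adjusted p = 0.00576) were higher by less, and Hsp90ab1 was lower (log2 -0.19, SE 0.07, edgeR adjusted p = 0.0475). The median of the members was 0.25 and that of all genes -0.01. Without the library of LH with the highest Hsph1 (collection 2, replicate 1, by title) 5 members were called, with 1.61 (SE 0.15) for Hsph1 and 0.98 (SE 0.10) for Hspa1b.

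In HL by number, Hsph1 of replicate 4 was at 175, 240.5, 290, 484 and 639 CPM in collections 1 to 5, and the others were at 125 to 233.06 CPM. In LH it was at 191, 337, 1622, 1127 and 2241 CPM in collections 1, 2, 3, 4 and 6, and the others were at 114 to 186 CPM. Replicate 4 of LH lay above every other LH library, and in HL 4 of the 5 libraries did. Hsph1 was highest in replicate 4 in 14 of 15 groups and Hspa1b in 15 of 15 by number, against 5 of 17 and 7 of 17 by titles. Hspa1b of replicate 4 was at 48.7 to 430 CPM (median 108, 15 libraries) and of replicates 1 to 3 at 18.0 to 91.3 CPM (median 56.7, 42 libraries). Hspd1 was at 61.1 to 238.2 CPM (median 83.5) against 47.2 to 91.6 CPM (median 72.0). The ranges of Hspa1b and Hspd1 overlapped, with the 5 highest values of Hspa1b among these 57 libraries all in replicate 4. The 5 libraries without a listed number stand outside these sets. In 1 of them, collection 2 of HL, replicate 3, by title, Hsph1 was at 1151 CPM and Hspa1b at 225.2 CPM. These values were the third highest and the second highest of all 62. That library had the lowest fibroblast marker sum (9594 CPM), an endothelial sum of 37.4 CPM and 26.3% of reads on no feature. The part of these in its values was not tested.

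Over collections by number, 6 of 10 members were called in replicate 4 (18.4% of genes), all with a rising slope: Hsph1 by 0.61 log2 units for each step of 4 h, Hspa1a by 0.66, Hspa1b by 0.43, Hspd1 by 0.23, Dnajb1 by 0.11 and Hspa8 by 0.08. Of these, Hsph1, Hspa1b and Hspd1 were also called in the first run alone and without TMM scaling, and Hspa1a, Dnajb1 and Hspa8 in neither. Hspa1a is near the floor, at 0 to 5.08 CPM in replicate 4, and its highest value is in the same library as those of Hsph1, Hspa1b and Hspd1 (collection 6 of LH by number). Without that library 2 of 10 were called, Hsph1 by 0.53 (SE 0.08, edgeR adjusted p = 7.95e-06) and Hspa1b by 0.26 (SE 0.07, edgeR adjusted p = 0.00785), and the step of Hspd1 was 0.07 (SE 0.04). In replicates 1 to 3, 2 of 10 were called (7.05% of genes), Hspa1b by 0.13 and Hspa8 by 0.06. The steps differed between the sets for 3 of 10 members (8.89% of genes): Hsph1 by 0.52 (SE 0.08, edgeR adjusted p = 8.66e-06), Hspa1b by 0.30 (SE 0.07, edgeR adjusted p = 0.00404) and Hspd1 by 0.22 (SE 0.05, edgeR adjusted p = 0.00312). Without the LH library named above, 1 of these differences was called, that of Hsph1 (0.44, SE 0.09, edgeR adjusted p = 0.0112), with 0.13 (SE 0.08) for Hspa1b and 0.06 (SE 0.05) for Hspd1. The step of Hspa8 was close in both sets, with a difference of 0.01 (SE 0.03).

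Of the other chaperone genes by number, 16 of 39 were called (29.9% of all genes were) and all 16 were higher in replicate 4. These were 7 of 11 small heat shock proteins and HSF1-responsive genes, 5 of 13 cochaperones, 3 of 8 mitochondrial genes and 1 of 7 CCT subunits. The shares of the last 3 lists are near or below the 29.9% of all genes. How many of all called genes were higher is not given here. Hspa4l (log2 2.38, SE 0.21) was above every member, and Cryab (log2 1.86, SE 0.20) was level with the member Hsph1. Both were highest in replicate 4 in 15 of 15 groups. The mitochondrial HSP70 Hspa9 gave 0.40 (SE 0.08), the HSP110 protein Hspa4 0.46 (SE 0.10) and the small heat shock protein Hspb8 0.38 (SE 0.07).

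**Figure D4:**
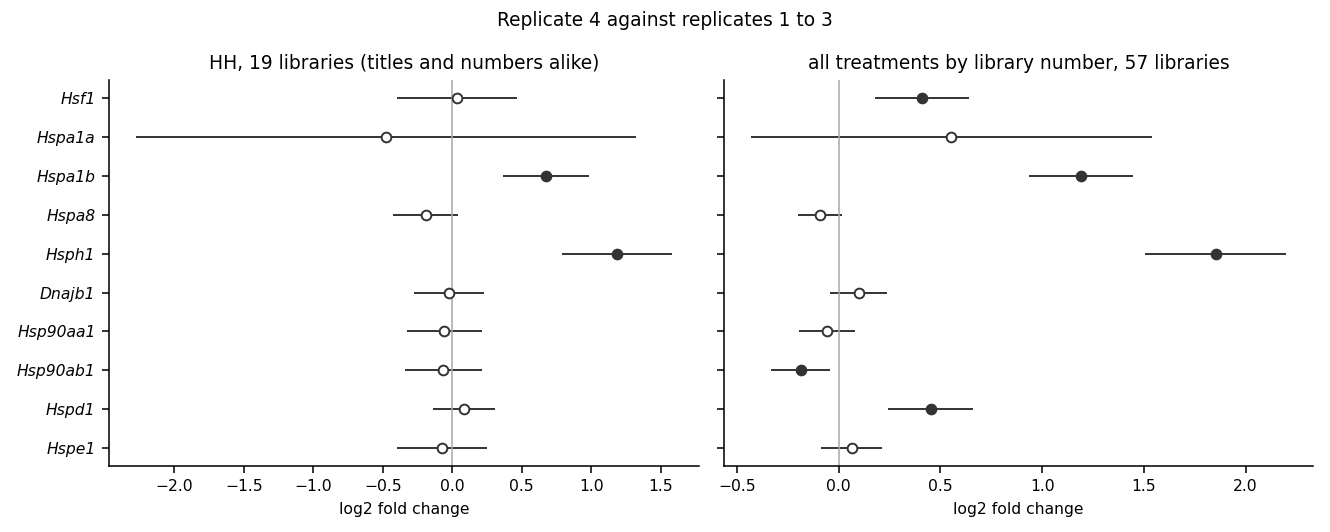
Log2 fold change (x axis) of replicate 4 against replicates 1 to 3 for each member (y axis), in HH alone (left) and over all treatments by library number (right); bars are 95% intervals and filled points passed the adjusted threshold. Hsph1 lies farthest to the right in both, at 1.19 and 1.85.

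Technical values of the libraries lay side by side with these differences. In HH, totals were 4300324 to 7015044 counts in replicate 4 and 3687321 to 11619095 in the others, and reads on no feature were 18.9% to 24.3% against 18.7% to 27.6%. The summed level of 8 immediate early genes, listed as a possible sign of handling, was 256.5 to 439 CPM in replicate 4 of HH. It was 209 to 336 CPM in the others, and by number 248 to 516 against 209 to 338 CPM. Jun (mean 168 CPM over all libraries) and Dusp1 (59.6 CPM) were the largest parts of this sum, and Fos was at 2.49 CPM. The endothelial sum, nearly all Kdr, was 145 to 185 CPM against 157 to 270 in HH and 22.8 to 185 against 151 to 270 by number. The fibroblast sum was 22073 to 36730 CPM against 14954 to 35070 in HH and 13635 to 36730 (median 23977) against 14954 to 37804 (median 29488) by number. The chondrocyte sum, nearly all Sox9, was 499.07 to 671 CPM against 294 to 605 in HH and 380 to 1129 against 294 to 649 by number. The part of these in the results was not tested. In bulk RNA, fewer cells of a type and less RNA per cell cannot be told apart.

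Members varied together between libraries in 2 ways. Over the 61 deeper libraries, on log2(CPM + 1), Hspa1b and Hsph1 had a Pearson r of 0.81 (Spearman rho 0.68). This fell to 0.71 without the 2 libraries farthest from the median and to 0.41 without replicate 4 by number. Hspa1b with Hspd1 (r 0.68, rho 0.41), Hsph1 with Hspd1 (0.64, rho 0.15) and Hsf1 with Hspa1b (0.54, rho 0.54) were the others of this kind. Without replicate 4 by number, the r of Hsph1 with Hspd1 was -0.22 and that of Hspa1b with Hspd1 0.37, whereas that of Hsf1 with Hspa1b was 0.52. Hspa1b with Hspa8 went the other way, from 0.08 over all 61 libraries to 0.62 without replicate 4. The HSP90 genes formed the other group, with an r of 0.79 (rho 0.64), 0.76 without replicate 4 by number and 0.93 in HH alone. Hsp90ab1 went against Hspa1b (r -0.62, rho -0.70). Within treatments this r was -0.87 for HL, -0.62 for LH and -0.19 for HH. In all, 5 of 45 pairs had an r of 0.5 or more, and the share over pairs of all genes is not given here. Among 13291 other genes ranked by r, Hsph1 was number 68 for Hspa1b and Hspa1b number 179 for Hsph1. Hsp90ab1 was number 95 for Hsp90aa1, and Hspa1b number 303 for Hsf1, so many other genes went more closely with these members. Libraries share a pool of counts and a sequencing depth, and these values describe the libraries without a test.

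Hspd1 and Hspe1, which encode the 2 parts of 1 folding chamber and share the interval printed above, had an r of 0.12 (rho 0.15), which was 0.36 without the 2 farthest libraries, 0.36 without replicate 4 by number and 0.32 in HH alone. Among all genes, the 3 closest to Hspd1 were Ptp4a2 (r 0.83, rho 0.63), Atp2a2 (0.82, rho 0.57) and Atp6ap2 (0.81, rho 0.54). For Hsp90aa1 they were Rdx (0.90, rho 0.83), Eif3a (0.89, rho 0.76) and Eif5b (0.89, rho 0.78). For Hspa8 they were Selenop (0.70, rho 0.68), Anxa7 (0.59, rho 0.57) and Cebpd (0.57, rho 0.52). Those of Hsph1, named after their values were seen, were Nupr1 (0.97, rho 0.82), Hspa4l (0.97, rho 0.81) and Hif1a (0.97, rho 0.765). Those of Hspa1b, also named afterwards, were Max (0.91, rho 0.89), Bpgm (0.90, rho 0.78) and Gsn (0.90, rho 0.85). Of these 5 members, Hspa8 had the lowest r with its closest partner.

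**Figure D5:**
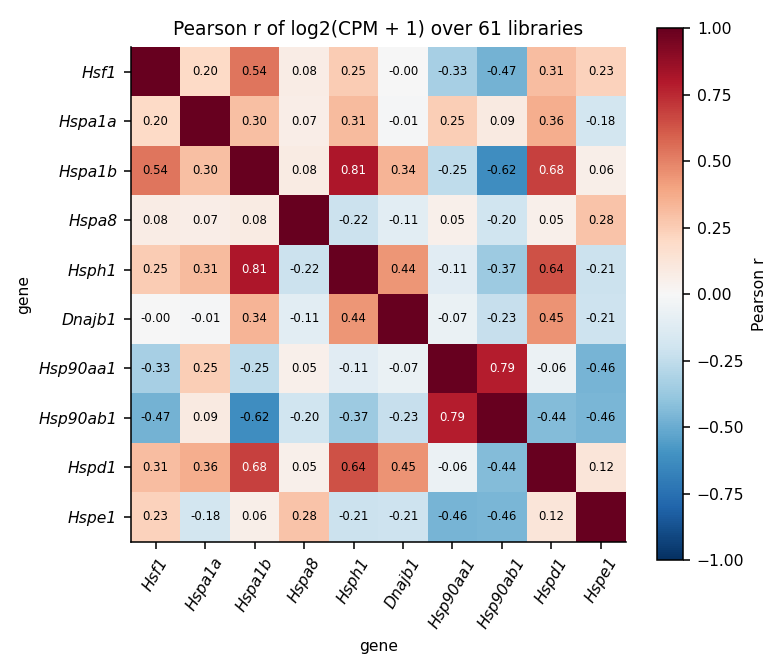
Pearson r of log2(CPM + 1) between each pair of members (both axes list the 10 genes) over 61 libraries, red for positive and blue for negative. The darkest red cells are Hspa1b with Hsph1 (0.81) and the HSP90 pair (0.79), and the darkest blue is Hspa1b with Hsp90ab1 (-0.62).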

How the data were processed

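RNA of Per2::Luc fibroblasts under HL, LH and HH was measured by 3′DGE in 62 libraries. Filtering, trimming, alignment to mm10 and counting of unique alignments on genes were done by the sequencing service. The values deposited by the authors are raw counts, 1 set for each library and sequencing run (121 sets). The submitters' processing notes name bcl2fastq, STAR 2.6.0a and HTSeq 0.9.1. The sources used here name neither the annotation release nor the use of strand.

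Runs of a library were summed (2 runs for 59 libraries, 1 run for 3), closing lines that name no gene (reads on no feature, 18.7% to 28.9%) were left out, and CPM were computed from the remaining totals. Identifiers were matched to GENCODE M21 symbols (30934 of 31053). The test covered 13292 genes (1 CPM or more in 3 or more libraries), with edgeR 4.0.16 in R 4.3.3: TMM scaling, quasi-likelihood F tests, Benjamini-Hochberg adjustment, threshold 0.05. The model for levels held treatment and collection, that for collections 1 mean for each group, and that for rhythm a mean, cosine and sine for each treatment. JTK_CYCLE was rewritten with an exact null for waves of 24 h, over phases 2 h apart, for which P was corrected. Trends were slopes over collections in 1 model with replicate 4 against the rest. DESeq2 1.42.0 was an alternative. Scripts were tested on simulated data. Promoter windows are RefSeq's (GRCm38.p6). A library of 104912 counts does not resolve genes near 10 CPM, and precision otherwise grows with counts.

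Libraries were grouped by titles, and placement by library number was an alternative. The samples' own replicate numbers did not pair samples across groups: of 52 pairs with the same number, 15 had correlated deviations above 0.1, with a median of -0.02 (44 of 153 pairs with different numbers, median 0.00). Numbers taken from the placement by library number went together more often, with 33 of 45 above 0.1 (median 0.20) against 30 of 135 with different numbers (median -0.06), but not in every pair. The members, the lists, the rule for named genes and the tests were chosen with earlier results of these data known. All 10 members are named, with those of the other lists that passed a test (at most 5 for each comparison), the 3 closest partners of Hspd1, Hsp90aa1 and Hspa8, and marker genes. Comparisons of replicate 4 and trends were added after the values were seen.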

Additional observations from a re-analysis of the deposited data

Results flagged for a closer look

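In 90 sets of 4 libraries (10 members in each of 9 groups), 8 had 1 value far from the other 3, where chance gives about 1 in 20 sets. All 8 values were the highest of their set. For Hsph1 these were collection 6 of HL, replicate 3, at 1127 CPM (the others 138 to 170), collection 5 of LH, replicate 2, at 484 CPM (150 to 161), and collection 6 of LH, replicate 1, at 639 CPM (189 to 233.06). All 3 libraries carry a library number listed as replicate 4.

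For Hspe1 the values were 112 CPM in collection 6 of HH, replicate 3 (others 53.9 to 57.4), 97.7 CPM in collection 4 of LH, replicate 2 (77.5 to 79.3), and 88.0 CPM in collection 5 of LH, replicate 1 (70.6 to 71.1). Dnajb1 was at 45.9 CPM in collection 3 of LH, replicate 4 (40.0 to 40.6). Hspa1a was at 2.15 CPM in collection 3 of LH, replicate 2 (0 to 0.154), a level of few counts.

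The change with collection differed between replicate 4 and replicates 1 to 3 in edgeR's test of the difference. In HH, Hsph1 differed by 0.40 log2 units for each step of 4 h. Over all treatments by library number the differences were 0.52 for Hsph1, 0.30 for Hspa1b and 0.22 for Hspd1. Without the 1 LH library with the highest Hsph1 they were 0.44, 0.13 and 0.06, and that of Hsph1 alone was called. The comparison was chosen after the values were seen.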

How the results depend on the processing

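Over the planned and added alternatives, 364 of 420 counts of members stayed on the same side of the threshold and within 1.5 times the main count. Of 810 recomputed level differences between treatments, 86 changed sign, and none was called in any of these fits. Counts of 0 for levels, for rhythm and for rhythm differences were 0 under each alternative run.

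Members called between collections in HL were 2 without a filter and 2 at an unadjusted threshold of 0.01. In LH the 3 calls became 0 without collection 2, replicate 1, 0 by library numbers, 1 by library numbers with a replicate block, 1 by library numbers without replicate 4, 1 with library totals in place of TMM, and 0 to 3 when a replicate was left out (0 without replicate 1, 1 without replicate 3). In HH they were 2 without a filter and 2 by library numbers without replicate 4. For treatment differences that vary between collections they were 3 without a filter, 1 at an unadjusted threshold of 0.01 and 0 to 1 when a replicate was left out (1 without HL replicate 3). A replicate block by titles gave 3 members in LH and changed no call. By titles the numbers do not pair the samples. By library number same-numbered libraries deviated together in 33 of 45 pairs, and the block there gave 1 member in LH and changed no other call. Pairs of members with an r of 0.5 or more numbered 9 within HL, 11 within LH, 3 within HH, 2 without the 2 farthest libraries, and 3 by library numbers without replicate 4.

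Members called between replicate 4 and the rest of HH (2 in all) were 1 in the second run, 1 without TMM, 1 without collection 1, 2, 5 or 6, and 0 to 2 when a replicate was left out (0 without replicate 1, 1 without replicate 3). They were 0 over all libraries by titles and 5 by numbers. Trends in replicate 4 of HH (1 member) were 2 in the second run, 0 without collection 1, 2 without collection 2, 0 by titles and 6 by numbers. Trends in replicates 1 to 3 of HH (1 member) were 0 without TMM, 0 without collection 1, 3, 4 or 6, 0 when any of the 3 replicates was left out, 0 by titles and 2 by numbers. Trend differences in HH (1 member) were 0 without collection 1 or 3, 0 to 1 when a replicate was left out (0 without replicate 2), 0 by titles and 3 by numbers. By library number, trends in replicate 4 (6 members) were 3 in the first run, 3 without TMM and 2 without collection 2, replicate 1, of LH (by title). Trends in replicates 1 to 3 (2 members) were 0 to 1 when a replicate was left out, and trend differences (3 members) were 1 without that library. These comparisons of replicate 4 and of trends, the replicate block by library numbers, the placement without replicate 4 and the omission of that 1 library were added after seeing the data. The cause of these changes was not tested.

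Depth limits Hspa1a, with 230 counts over 62 libraries, and each member in the shallowest library. The wide spread of Hsph1 leaves a 95% interval of -0.75 to 0.51 on the log2 scale for LH against HL.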
